A study of Mus musculus with 10 samples.

Results

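Levels of 10 genes that mark nonpeptidergic nociceptors, or that code for receptors of the Mrgpr family found on them, were compared between oxaliplatin and vehicle in mouse dorsal root ganglia (DRG), where the cell bodies of the body's sensory neurons lie. They are Mrgprd (ENSMUSG00000051207), Mrgpra3 (ENSMUSG00000078698), Mrgprb4 (ENSMUSG00000070550), Mrgprb5 (ENSMUSG00000070551), Mrgprx1 (ENSMUSG00000070552), Mrgpre (ENSMUSG00000048965), Lpar3 (ENSMUSG00000036832), Lpar5 (ENSMUSG00000067714), Agtr1a (ENSMUSG00000049115) and Plxnc1 (ENSMUSG00000074785). Each was found by its gene name in the deposited count table, and all 10 had 1 row, of 40481 distinct Ensembl genes. The table holds RNA sequencing counts of 5 libraries from C57BL/6 mice given oxaliplatin, labelled 10 mg/kg, and of 5 libraries from C57BL/6 mice given vehicle. The design text gives 8 weeks of treatment. Oxaliplatin, a platinum compound given for bowel cancer, is known to injure sensory nerves. Age, dosing schedule and any pooling of animals were not stated in the labels. Nothing in them says that each library is a separate animal, so the spread behind the p-values may be partly technical.

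Nonpeptidergic nociceptors are small unmyelinated sensory neurons that mostly lack the peptides CGRP and substance P, bind the lectin IB4 in the mouse and end in the skin. In mice they mature under the transcription factor Runx1 and the growth factor receptor Ret. The Mrgpr family of G protein-coupled receptors sorts them into classes: Mrgprd neurons, which serve mechanical pain, Mrgpra3 neurons, which serve itch, and Mrgprb4 neurons, which answer gentle stroking. Much of the family lies in a cluster of similar genes on mouse chromosome 7.

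A pair of close relatives and a pair of near copies in that cluster are compared below, so the DNA around their starts is shown. The windows reach from 250 bases before to 50 bases after the RefSeq start in GRCm38.p6, on the minus strand, and are credited to RefSeq. Mrgprb4 (chr7:48199129-48199428) and Mrgprb5 (chr7:48168936-48169235) are neighbours with no protein-coding gene between them in the GENCODE M21 annotation. Their windows align without gaps and are identical at 246 of 300 bases (82.0%). Capitals mark the 54 bases that differ.
Mrgprb4: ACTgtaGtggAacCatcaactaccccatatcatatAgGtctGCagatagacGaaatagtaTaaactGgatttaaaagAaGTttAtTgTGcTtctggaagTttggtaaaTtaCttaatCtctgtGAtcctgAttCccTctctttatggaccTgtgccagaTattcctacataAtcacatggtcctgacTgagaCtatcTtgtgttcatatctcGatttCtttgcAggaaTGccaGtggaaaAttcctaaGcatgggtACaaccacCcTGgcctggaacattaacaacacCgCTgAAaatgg
Mrgprb5: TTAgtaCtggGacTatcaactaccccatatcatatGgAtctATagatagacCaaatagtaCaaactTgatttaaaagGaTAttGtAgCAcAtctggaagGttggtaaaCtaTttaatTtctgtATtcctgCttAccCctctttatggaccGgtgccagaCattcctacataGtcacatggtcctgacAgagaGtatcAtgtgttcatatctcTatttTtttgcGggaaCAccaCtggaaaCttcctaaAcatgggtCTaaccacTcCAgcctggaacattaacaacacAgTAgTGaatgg
The windows of Mrgpra2a (chr7:47452115-47452414) and Mrgpra2b (chr7:47489533-47489832), family members outside the 10, are identical over all 300 bases, so the Mrgpra2a one stands for both.
Mrgpra2a: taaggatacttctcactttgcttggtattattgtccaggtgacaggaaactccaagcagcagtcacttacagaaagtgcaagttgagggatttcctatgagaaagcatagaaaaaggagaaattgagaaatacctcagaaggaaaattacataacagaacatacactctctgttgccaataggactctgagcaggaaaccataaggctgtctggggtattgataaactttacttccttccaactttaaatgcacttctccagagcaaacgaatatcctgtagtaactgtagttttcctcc
Their longest transcripts are 97.2% identical, against 71.4% for Mrgprb4 and Mrgprb5. Of the 50-base windows in the transcripts of Mrgpra2a and Mrgpra2b, 87.5% and 81.2% also occur in transcripts of another gene (each other, Mrgpra9 or Mrgpra6), so counts of the pair are uncertain one by one. Among the 10 genes this share was highest for Mrgpra3 (7.1%) and Mrgprx1 (5.8%), and at most 1.5% for the other 8. The RUNX motif TGTGGT, searched on both strands (ACCACA on the other), was in 2 of the 9 windows that the RefSeq table holds for 8 of the 10 genes, both of them of Lpar5, and in 16.8% of all windows there.

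Libraries held 52963470 to 60984426 counts, and the 10 genes had between 106 and 15664 counts in a library. Of 18401 genes tested, 234 rose and 142 fell in the oxaliplatin group (quasi-likelihood test of edgeR, p adjusted by Benjamini-Hochberg, below 0.05), or 303 and 99 with no composition factor. All 13 pan-neuronal markers were found, at a summed level of 18220 to 19570 CPM (counts of the gene scaled to a common library size, with edgeR's TMM factor for RNA composition) after oxaliplatin and 19410 to 22370 CPM after vehicle. The injury genes Sprr1a and Atf3 set vehicle replicate 5 apart: Sprr1a stood there at 189 CPM, against 0.137 to 1.25 CPM after oxaliplatin and 1.29 to 11.6 CPM in the other vehicle libraries, and Atf3 at 176 CPM, against 8.32 to 13.7 CPM and 12.1 to 32.4 CPM. The fat cell gene Cfd set oxaliplatin replicate 1 apart, which had 457 CPM of it, while the rest of that group had 9.93 to 29.3 CPM and the vehicle libraries 3.91 to 20.4 CPM. Skeletal muscle genes summed to 670 CPM in that same library and to 7.59, 10.2, 19.97 and 13.3 CPM in oxaliplatin replicates 2 to 5, against 89.1 to 457 CPM in the vehicle libraries, so 4 of the 5 oxaliplatin libraries lay below every vehicle library. None of the 4 muscle genes (Ckm, Acta1, Myh4 and Tnnt3) passed in edgeR over all 10 libraries. All 4 passed in 1 of the 10 fits without 1 library (edgeR adjusted p of 0.0315 to 0.0494) and without oxaliplatin replicate 1 and vehicle replicate 5 together (0.017 to 0.0346), and 3 of them in limma voom. The part of muscle tissue in the results that follow was not tested. Values without vehicle replicate 5 are given beside those of the genes described in full.

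None of the 10 genes passed the threshold over all genes in either direction (edgeR adjusted p), where 2.04% of all tested genes did. At an unadjusted p below 0.05 there were 2, Mrgprb4 and Agtr1a, both higher, against 16.3% of all tested genes (8.51% higher and 7.8% lower). Of the 10, 3 had a log2 fold change above 0, against 51% of all tested genes. DESeq2 called 1, Agtr1a, and limma voom with quality weights called 1, Mrgprb4. The median log2 fold change of the 10 was -0.03, and that of all tested genes 0.00515. For 9 of the 10 the 95% interval of the log2 fold change lay between -1 and 1, which leaves out a 2-fold change, and for 7 it lay between -0.5 and 0.5. In bulk DRG, fewer cells of a class and less RNA per cell cannot be told apart.

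**Figure D1:**
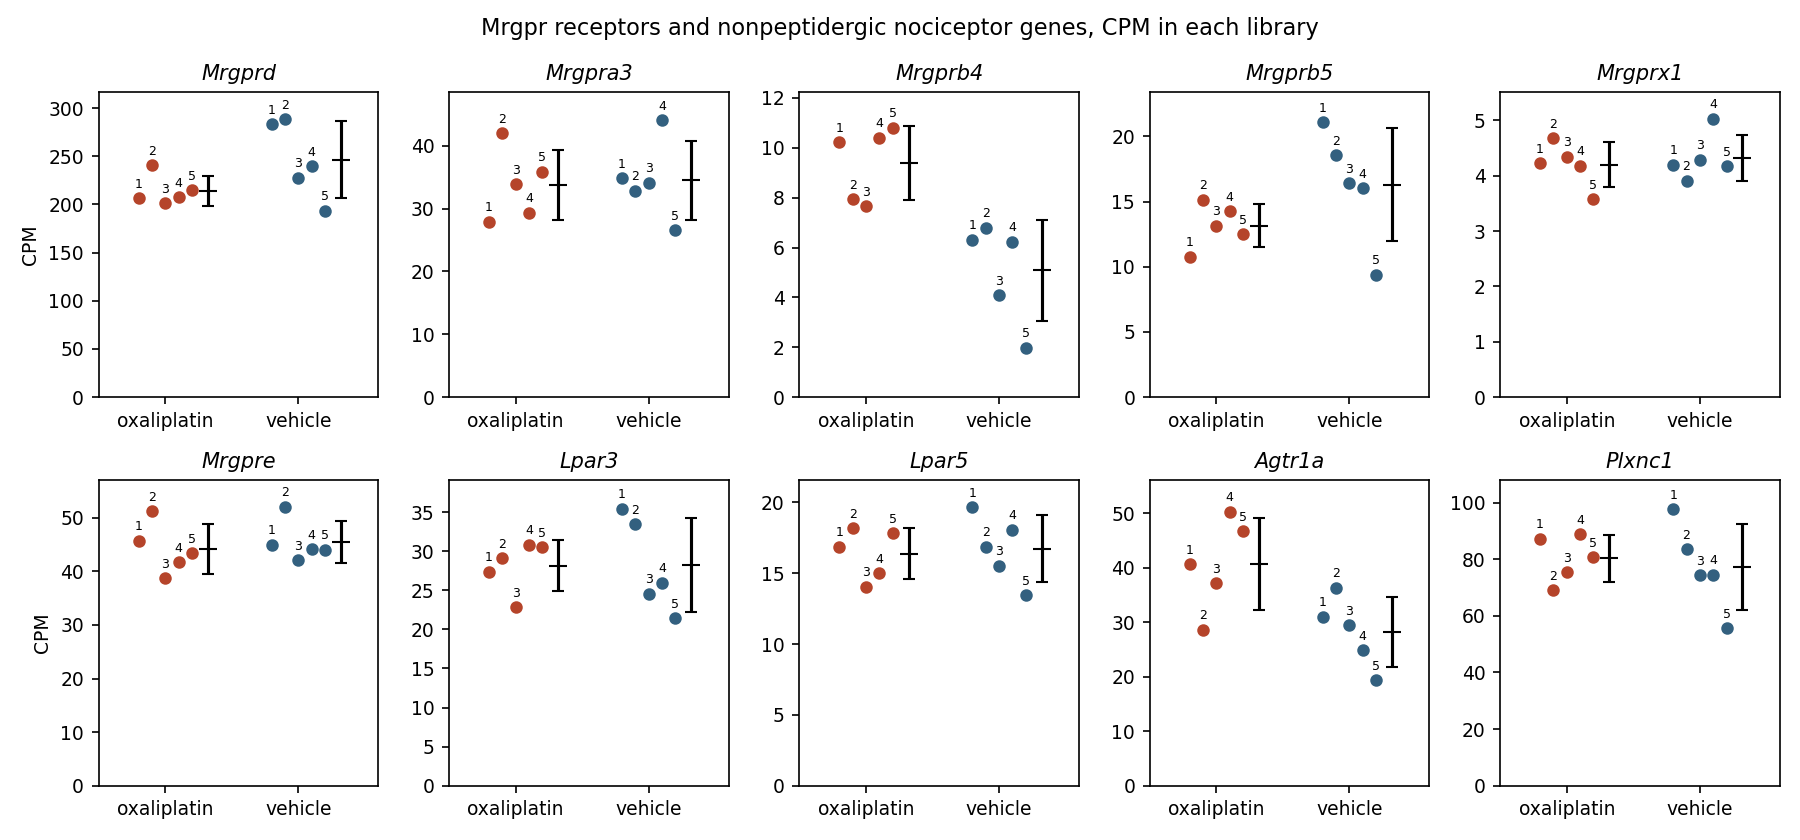
Level of each of the 10 genes in CPM (y axis, from 0) in the 5 oxaliplatin libraries (left, red) and the 5 vehicle libraries (right, blue), with the replicate number above each point and the mean and SD beside each group. Mrgprb4 is the 1 panel in which the groups do not overlap, from 7.66 CPM upward after oxaliplatin and up to 6.79 CPM after vehicle.

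Mrgprd, the receptor for beta-alanine that defines the largest nonpeptidergic class, had 206, 241, 201, 208 and 215 CPM in oxaliplatin replicates 1 to 5, against 283, 289, 228, 240 and 193 CPM in vehicle replicates 1 to 5. The groups overlapped, with vehicle replicate 5 the lowest of all 10 libraries and vehicle replicates 1 and 2 the highest. The mean was 214 ± 15.7 CPM after oxaliplatin and 247 ± 39.8 CPM after vehicle (SD, n = 5 each). Its log2 fold change was -0.20 ± 0.10 (SE), with a 95% interval of -0.41 to 0.00023 (edgeR adjusted p = 0.307). Without vehicle replicate 5 it was -0.28 (edgeR adjusted p = 0.0824).

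Mrgpra3, the chloroquine receptor of itch neurons, had 27.9, 42.0, 33.9, 29.4 and 35.9 CPM in oxaliplatin replicates 1 to 5, against 34.8, 32.9, 34.1, 44.1 and 26.6 CPM in vehicle replicates 1 to 5. The ranges nearly coincided. Its log2 fold change was -0.03 ± 0.13 (edgeR adjusted p = 0.947), with a 95% interval of -0.31 to 0.25. Without vehicle replicate 5 it was -0.11 (edgeR adjusted p = 0.734). Mrgprx1, earlier called Mrgprc11 and also a receptor of itch neurons, ran from 3.57 to 4.68 CPM after oxaliplatin and from 3.91 to 5.03 CPM after vehicle, with a log2 fold change of -0.04 (95% interval -0.32 to 0.24, edgeR adjusted p = 0.924). Mrgpre, an orphan receptor of the family, ran from 38.8 to 51.3 CPM after oxaliplatin and from 42.0 to 52.1 CPM after vehicle. Its interval was the narrowest of the 10, -0.22 to 0.13, around a log2 fold change of -0.04.

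Mrgprb4 was the 1 gene of the 10 in which every oxaliplatin library lay above every vehicle library, a pattern seen in 2.25% of all tested genes. It had 10.2, 7.93, 7.66, 10.4 and 10.8 CPM in oxaliplatin replicates 1 to 5, against 6.31, 6.79, 4.10, 6.24 and 1.98 CPM in vehicle replicates 1 to 5. Vehicle replicate 5, with 106 counts, was far below the others, while the counts of the oxaliplatin libraries ran from 448 to 647. The mean was 9.40 ± 1.48 CPM after oxaliplatin and 5.08 ± 2.03 CPM after vehicle (SD, n = 5 each), a 1.85-fold difference. The log2 fold change of 0.89 ± 0.28 missed the genome-wide threshold (edgeR adjusted p = 0.139). Without vehicle replicate 5 the difference was smaller, at 0.68, and passed (edgeR adjusted p = 0.0452). It did not pass without that library and oxaliplatin replicate 1 together (0.65, edgeR adjusted p = 0.0871), and over all alternatives the adjusted p ran from 0.0354 to 0.271.

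Mrgprb5, the neighbour whose start window is shown above beside that of Mrgprb4, had a point estimate of the other sign. It had 10.8, 15.1, 13.2, 14.3 and 12.5 CPM in oxaliplatin replicates 1 to 5, against 21.1, 18.6, 16.4, 16.0 and 9.39 CPM in vehicle replicates 1 to 5. All 5 oxaliplatin libraries lay below vehicle replicates 1 to 4, and vehicle replicate 5 below all of them. Its log2 fold change, -0.31 ± 0.17, did not pass (edgeR adjusted p = 0.409), nor did the -0.45 found without vehicle replicate 5 (edgeR adjusted p = 0.0597). With the pan-neuronal level as a covariate it was -0.026 ± 0.213 (SE). For each count of Mrgprb5 there were 0.948, 0.524, 0.583, 0.730 and 0.863 counts of Mrgprb4 in oxaliplatin replicates 1 to 5, against 0.299, 0.366, 0.250, 0.389 and 0.210 in vehicle replicates 1 to 5. That ratio was chosen after its values were seen and is given with no test. Within it vehicle replicate 5 was no longer far from its group.

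**Figure D2:**
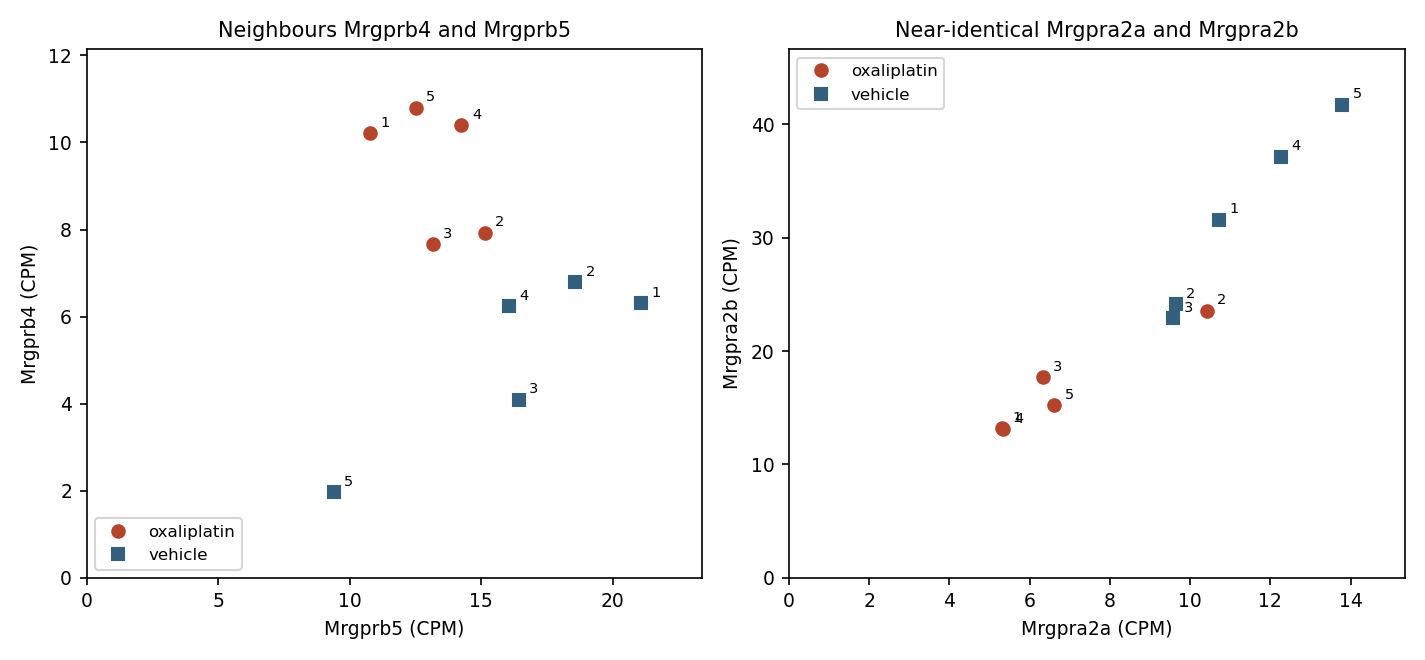
Left, Mrgprb4 (y axis) against Mrgprb5 (x axis), and right, Mrgpra2b against Mrgpra2a, in CPM, with 1 point for each library, numbered by replicate (red circles oxaliplatin, blue squares vehicle). The oxaliplatin libraries hold 0.524 or more counts of Mrgprb4 for each of Mrgprb5 and the vehicle libraries at most 0.389, while in the right panel 4 oxaliplatin libraries lie below and left of every vehicle library.

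Neither lysophosphatidic acid receptor passed the test. Lpar3, which marks Mrgprd neurons, ran from 22.9 to 30.8 CPM after oxaliplatin and from 21.5 to 35.5 CPM after vehicle, with a log2 fold change of -0.0022 ± 0.13 (edgeR adjusted p = 0.996). Lpar5 ran from 14.0 to 18.2 CPM after oxaliplatin and from 13.5 to 19.6 CPM after vehicle (log2 fold change -0.03 ± 0.11, edgeR adjusted p = 0.935). Lpar5 is also known from microglia and macrophages. Of 11 macrophage markers 2, Cx3cr1 and Ctss, fell and none rose, where 0.772% of all tested genes fell, at a summed level of 54.4 to 75.7 CPM after oxaliplatin and 54.4 to 100 CPM after vehicle, and their part in the Lpar5 level was not tested. Ctss lost its call in 8 of 10 fits without 1 library (edgeR adjusted p up to 0.12) and in limma voom (0.0937), and Cx3cr1 in 2 of 10 (up to 0.0581). Plxnc1, the plexin that binds semaphorin 7A, ran from 69.1 to 88.8 CPM after oxaliplatin and from 55.7 to 97.7 CPM after vehicle (log2 fold change 0.06 ± 0.12, edgeR adjusted p = 0.882).

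Agtr1a, a type 1 receptor of angiotensin II, had 40.7, 28.6, 37.2, 50.4 and 46.8 CPM in oxaliplatin replicates 1 to 5, against 31.0, 36.4, 29.4, 24.9 and 19.4 CPM in vehicle replicates 1 to 5. Oxaliplatin replicate 2 lay inside the vehicle range, and the other 4 lay above it. The mean was 40.7 ± 8.48 CPM after oxaliplatin and 28.2 ± 6.42 CPM after vehicle (SD, n = 5 each). Its log2 fold change was 0.53 ± 0.18, a 1.44-fold difference, with a 95% interval of 0.13 to 0.93 (edgeR adjusted p = 0.173). DESeq2 put it past the threshold (0.53, adjusted p = 0.0291), the 1 alternative of 21 that did. Without vehicle replicate 5 it was 0.42 (edgeR adjusted p = 0.239), and over all alternatives the log2 fold change ran from 0.385 to 0.71 and the adjusted p from 0.0291 to 0.373. Agtr1a is also known from smooth muscle cells of vessels. Of 8 pericyte and smooth muscle markers 2, Kcnj8 and Abcc9, rose and none fell, where 1.27% of all tested genes rose, and the summed level of the list did not overlap, at 202 to 279 CPM after oxaliplatin and 166 to 193 CPM after vehicle. Abcc9 lost its call in 4 of 10 fits without 1 library (edgeR adjusted p up to 0.0784), while Kcnj8 passed in all 10. The part of these cells in the Agtr1a result was not tested.

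**Figure D3:**
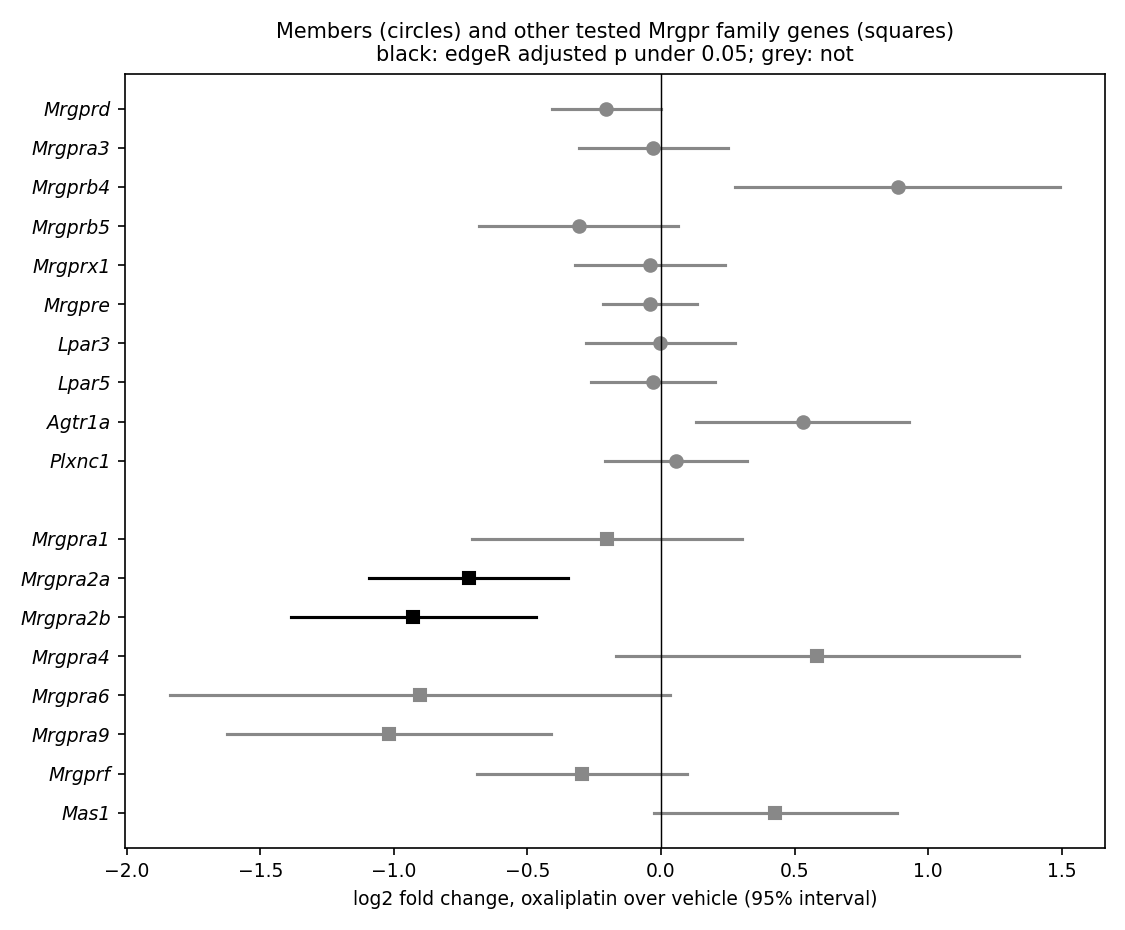
Log2 fold change, oxaliplatin over vehicle (x axis), with its 95% interval, for the 10 genes (circles) and the 8 other Mrgpr family genes with enough counts to be tested (squares). The intervals of Mrgprb4 and Agtr1a lie above 0 without passing the threshold over all genes, and Mrgpra2a and Mrgpra2b, in black, are the 2 that passed it.

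Per kilobase of exon, which allows levels of different genes to be compared, Mrgprd stood first, at 68.1 ± 5.0 CPM per kilobase after oxaliplatin and 78.4 ± 12.7 after vehicle (SD, n = 5 each). Mrgpra3 came second in both groups, at 26.1 ± 4.33 CPM per kilobase after oxaliplatin and 26.6 ± 4.85 after vehicle. These 2 did not overlap each other or the rest over the libraries of a group. After vehicle the gap was narrow, from 20.51 CPM per kilobase upward for Mrgpra3 and up to 20.34 for Mrgprb5. Below them, after oxaliplatin, came Agtr1a (14.6), Mrgprb5 (12.7), Mrgpre (11.8), Lpar3 (11.4), Lpar5 (10.8), Plxnc1 (9.61), Mrgprb4 (7.71) and Mrgprx1 (3.56 CPM per kilobase). Each of these overlapped the next in order over its libraries, except that Mrgprb4 lay clear of Mrgprx1. After vehicle the order was Mrgprb5 (15.7), Mrgpre (12.1), Lpar3 (11.5), Lpar5 (11.03), Agtr1a (10.1), Plxnc1 (9.25), Mrgprb4 (4.17) and Mrgprx1 (3.66 CPM per kilobase), again with overlap between neighbours, except that Plxnc1 lay clear of Mrgprb4. Exon lengths come from GENCODE M21, which may not be the annotation behind the counts.

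Vehicle replicate 5 was the lowest of the 10 libraries for 8 of the 10 genes, all but Mrgprx1 and Mrgpre, and its mean deviation over the 10 genes, from each gene's own mean, was -0.49 on the log2 scale. The other mean deviations ran from -0.065 to 0.10 after oxaliplatin and from -0.105 to 0.17 in the other vehicle libraries. This was the library with the most Sprr1a and Atf3, whose part in these levels was not tested. After group means were removed, the 45 pairs among the 10 genes had a median Pearson correlation of 0.51 over the 10 libraries, a description that rests on shared libraries. It was 0.20 over the 9 libraries without vehicle replicate 5. By the same measure, and over 12275 genes, those most like Mrgprd were Tmem169 (0.98), Gtf2i (0.96), Tex2 (0.95), Kcnab1 (0.95) and Snx9 (0.94), and those most like Mrgpra3 were Tmem231 (0.94), Hemk1 (0.92), Kank1 (0.91), Il33 (0.91) and Snx16 (0.90). These were picked as the highest of 12275 correlations over 10 libraries and were not tested. Without the 2 libraries farthest out for Mrgprd, its 5 ran from 0.878 to 0.95. Likewise the 5 of Mrgpra3 ran from 0.833 to 0.898.

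**Figure D4:**
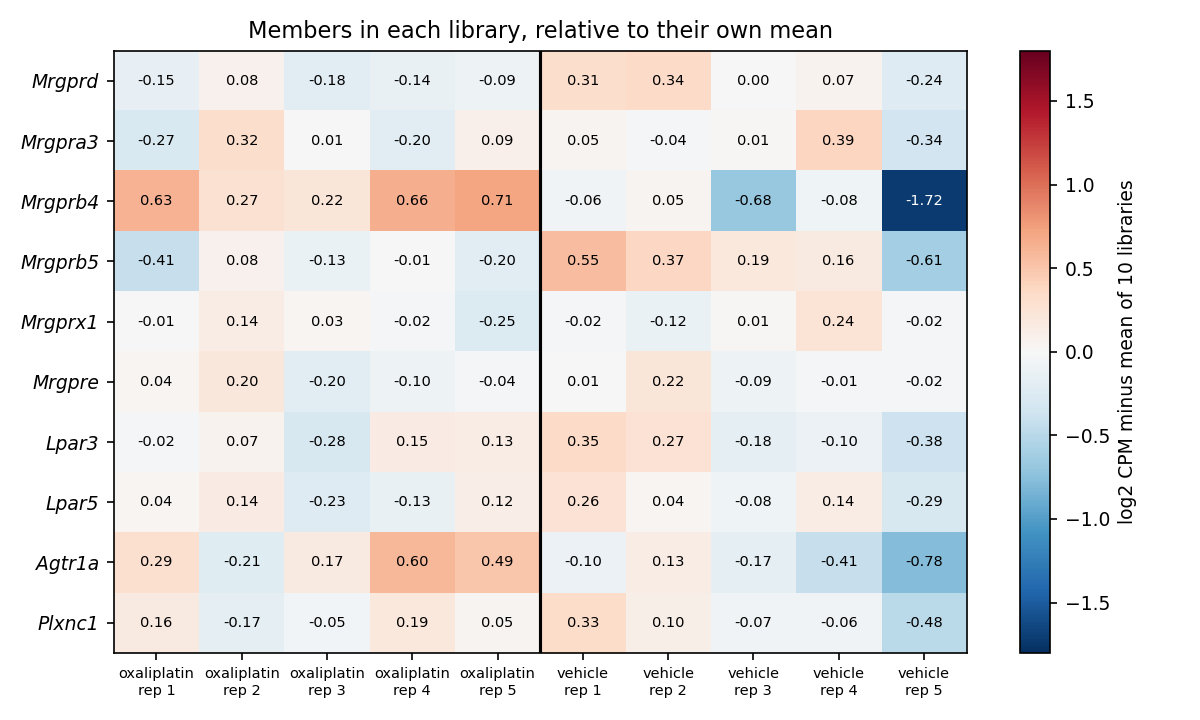
Each of the 10 genes (rows) in each library (columns, oxaliplatin left of the line and vehicle right of it), as log2 CPM minus the gene's mean over the 10 libraries (colour and printed value). The column of vehicle replicate 5 is the lowest for 8 genes, and the Mrgprb4 row is above 0 in all 5 oxaliplatin libraries.

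Among the 15 other family genes listed, 8 had enough counts to be tested, of which 0 rose and 2 fell, at a median log2 fold change of -0.51, where 0.772% of all tested genes fell. Mrgpra2a and Mrgpra2b, the pair that shares its start window, code for receptors also known from mouse neutrophils. Mrgpra2b had 13.2, 23.6, 17.7, 13.1 and 15.3 CPM in oxaliplatin replicates 1 to 5, against 31.6, 24.1, 22.9, 37.2 and 41.8 CPM in vehicle replicates 1 to 5. The groups overlapped through oxaliplatin replicate 2 and vehicle replicate 3 alone. Its log2 fold change was -0.93 ± 0.21, or 1.90-fold lower (edgeR adjusted p = 0.0493). For Mrgpra2a it was -0.72 ± 0.18, or 1.65-fold lower (edgeR adjusted p = 0.0468), with oxaliplatin replicate 2 inside the vehicle range. Without vehicle replicate 5 neither passed, at -0.63 for Mrgpra2a and -0.81 for Mrgpra2b (edgeR adjusted p = 0.0933 and 0.0873). Nor did either pass without that library and oxaliplatin replicate 1 together (edgeR adjusted p = 0.178 and 0.158). The call for Mrgpra2b also ended with no filter on low counts (edgeR adjusted p = 0.112). That for Mrgpra2a ended with no composition factor and with a surrogate variable (edgeR adjusted p = 0.053 and 0.0507).

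Since reads of the pair can hardly be told apart, their counts were also added up, a choice made after the values were seen. The sum held 18.5, 34.0, 24.0, 18.5 and 21.9 CPM in oxaliplatin replicates 1 to 5, against 42.3, 33.8, 32.5, 49.4 and 55.5 CPM in vehicle replicates 1 to 5. Oxaliplatin replicate 2 lay among the vehicle libraries and the other 4 below them all. The log2 fold change was -0.87 ± 0.20, just short of the threshold (edgeR adjusted p = 0.0594). Leaving out any 1 library other than oxaliplatin replicate 2 ended the call for Mrgpra2a (adjusted p up to 0.14), and 7 of the 10 did so for Mrgpra2b (up to 0.149), all but oxaliplatin replicate 2 and vehicle replicates 2 and 3. Vehicle replicate 5, lowest for most of the 10 genes, was the highest library for this pair. Neutrophil markers, a list also added after seeing the values, had 0 of 7 tested members past the threshold and a summed level of 8.36 to 51.1 CPM after oxaliplatin and 8.03 to 59.0 CPM after vehicle. Their part in the Mrgpra2 levels was not tested.

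The other family genes were low or short of the threshold. Mrgpra9 averaged 0.653 ± 0.209 CPM after oxaliplatin and 1.32 ± 0.402 CPM after vehicle (log2 fold change -1.02 ± 0.29, edgeR adjusted p = 0.0787). Mrgpra6 lay below every vehicle library in all 5 oxaliplatin libraries, a pattern seen in 1.77% of all tested genes, but on 3 to 11 counts after oxaliplatin and 12 to 18 after vehicle (edgeR adjusted p = 0.326). Mrgprb2, the receptor by which many drugs activate mouse mast cells, had 2, 0, 12, 12 and 12 counts in oxaliplatin replicates 1 to 5, against 0, 4, 0, 0 and 0 in vehicle replicates 1 to 5, too few to be tested. Mast cell markers had 0 of 5 tested members past the threshold and a summed level of 3.83 to 13.2 CPM after oxaliplatin and 3.72 to 13.8 CPM after vehicle.

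Of 18 other genes of nonpeptidergic nociceptors 0 rose and 1 fell, at a median log2 fold change of -0.08, where 0.772% of all tested genes fell. The ATP-gated channel P2rx3 fell to 138, 165, 141, 144 and 137 CPM in oxaliplatin replicates 1 to 5, against 195, 191, 158, 182 and 171 CPM in vehicle replicates 1 to 5. Oxaliplatin replicate 2 alone lay above the lowest vehicle library. Its difference was -0.31 ± 0.07 as a log2 fold change (edgeR adjusted p = 0.0314, and up to 0.111 when 1 library was left out, above 0.05 in 7 of 10 such fits). Over the fits without 1 library the log2 fold change of P2rx3 ran from -0.36 to -0.27. Without vehicle replicate 5 the edgeR adjusted p was 0.0355. Ret, the growth factor receptor of these neurons, was at -0.24 ± 0.07 (edgeR adjusted p = 0.111), Gfra2, its partner for neurturin, at 0.08 ± 0.11 (edgeR adjusted p = 0.778), the sodium channel Scn11a at -0.08 ± 0.14 (edgeR adjusted p = 0.835) and Trpa1, the irritant channel, at 0.11 ± 0.11 (edgeR adjusted p = 0.688).

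Around the receptors, ligands and partners were looked at by list. None of 18 genes of the Gq pathway, through which several Mrgpr receptors signal, passed in either direction, at a median log2 fold change of 0.03. Arrb1, an arrestin that switches receptors off, was at -0.27 ± 0.08 (edgeR adjusted p = 0.0769). None of 7 tested genes of lysophosphatidic acid handling passed (median -0.05), with Enpp2, which makes that lipid, at 0.26 ± 0.08 (edgeR adjusted p = 0.136). Nor did any of 11 plexin and semaphorin genes (median -0.10), with Plxna4 at -0.32 ± 0.10 (edgeR adjusted p = 0.121).

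Of 10 tested angiotensin genes 1 rose and 0 fell, at a median log2 fold change of 0.27, where 1.27% of all tested genes rose. Ace, the enzyme that makes angiotensin II, rose to 4.99, 4.31, 4.55, 4.90 and 4.79 CPM in oxaliplatin replicates 1 to 5, against 2.73, 3.39, 2.33, 2.77 and 3.17 CPM in vehicle replicates 1 to 5. Every oxaliplatin library lay above every vehicle library, a pattern seen in 2.25% of all tested genes. Ace was 1.64-fold higher, a log2 fold change of 0.71 ± 0.14 (edgeR adjusted p = 0.0184, and up to 0.0585 when 1 library was left out, above 0.05 in 3 of 10 such fits). Without vehicle replicate 5 it was 0.75 (edgeR adjusted p = 0.0245). Ace is also made by endothelial cells, of whose 5 markers 2, Pecam1 and Cdh5, rose, at a summed level of 52.8 to 65.0 CPM after oxaliplatin and 35.6 to 52.8 CPM after vehicle. Kdr, Cldn5 and Tek of that list did not pass (edgeR adjusted p = 0.663, 0.302 and 0.991). Cdh5 lost its call in 7 of 10 fits without 1 library (edgeR adjusted p up to 0.147), and Pecam1 in 1 of 10 (0.0504). The part of these cells in the Ace result was not tested. Agtr1b, the paralogue of Agtr1a, had a log2 fold change of 0.50 ± 0.18 (edgeR adjusted p = 0.161), and 1.3% of the 50-base windows of Agtr1a occur in another gene.

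Neighbouring neuron classes are set beside the same shares of all tested genes, 1.27% risen and 0.772% fallen. Of 10 genes of itch neurons that make somatostatin none passed (median log2 fold change 0.14), with the cytokine receptors Osmr at 0.44 ± 0.12 and Il31ra at 0.32 ± 0.12 (edgeR adjusted p = 0.0884 and 0.179). Htr1f and Nts of the same list were lower (edgeR adjusted p = 0.182 and 0.212). By an unadjusted edgeR p below 0.05, 2 of the 10 were higher and 2 lower. Of 8 peptidergic genes 1, the CGRP gene Calcb, fell, at -0.49 ± 0.08 (edgeR adjusted p = 0.00596), and it passed in all 10 fits without 1 library. Of 8 genes of large neurons 1, the neurofilament Nefh, fell (-0.63 ± 0.13, edgeR adjusted p = 0.04). For Nefh the edgeR adjusted p was above 0.05 in 7 of 10 fits without 1 library (up to 0.0924), and 0.0719 without vehicle replicate 5. Necab2 of the same list was higher but short of the threshold (edgeR adjusted p = 0.0566). It passed in DESeq2 (adjusted p = 0.00976), in limma voom (0.0249) and in 2 of 10 edgeR fits without 1 library. By an unadjusted edgeR p below 0.05, 1 of the 8 was higher and 1 lower. None of 4 genes of stroking-sensitive C fibres with tyrosine hydroxylase passed, and none of the 13 pan-neuronal genes (medians 0.06 and -0.03). Of those 13, 4 were lower and 0 higher at an unadjusted edgeR p below 0.05. The shares over all tested genes were 7.8% lower and 8.51% higher.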

How the data were processed

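Per the labels, RNA was isolated on magnetic beads and a SMARTer kit gave the libraries. The authors deposited raw read counts per Ensembl gene, whole numbers in 1 column for each of 10 samples. The submitters' processing notes list STAR (2.5.1a), Partek and DESeq2 without saying what each did. Build, annotation, counting step and strand setting: not given in the sources used here. Of 40757 rows, 276 repeats of an ID with identical counts were dropped.

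From these counts, edgeR 4.0.16 (R 4.3.3) tested oxaliplatin against vehicle: filterByExpr, TMM, robust quasi-likelihood, no covariates, Benjamini-Hochberg over 18401 genes, threshold 0.05. SE came from the log2 fold change and the F statistic, and log2 CPM has a prior count of 2. On simulated counts for 18149 genes of this comparison, 70% of 50 genes changed 1.5-fold and 92% of 50 changed 2-fold were recovered, and 14 of 191 calls were false. DESeq2 1.42.0, limma 3.58.1 and sva 3.50.0 served as alternatives. Replicates all differed by more than sampling noise (chi-square over its degrees of freedom 13 to 54.7). Promoter windows and motif matches came from RefSeq, 50-base windows from GENCODE M21 transcripts.

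The members and lists were chosen with earlier results of these data known. Named were the 10 members, list genes past the threshold or of smallest p (as examples), and the 5 genes most correlated with Mrgprd and with Mrgpra3 (mean of at least 2 CPM). Lists of satellite glia, Schwann cell myelin and fibroblasts are not described. In these Glul, Drp2 and Pdgfra passed as higher and Fabp7 as lower. Gfra2, Scn11a, Trpa1, Mrgprb2, Mrgpra6, Mrgpra9, Htr1f, Nts, Sprr1a, Atf3, Cfd and the muscle genes were named after their values were seen.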

Additional observations from a re-analysis of the deposited data

Results flagged for a closer look

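Oxaliplatin replicate 2 stood apart from its group in 2 genes, by the gap to the nearest library over the range of the group, with a critical value of 0.71 for 5 samples. It held 10.4 CPM of Mrgpra2a (gap over range 0.744) and 165 CPM of P2rx3 (0.756), the highest oxaliplatin value of each. Of 32 groups checked, over 16 genes, 2 stood out in this way, and chance alone gives about 1 in 20. Without this library the log2 fold change of Mrgpra2a was -0.93 (edgeR adjusted p = 0.00215) and that of P2rx3 -0.36 (edgeR adjusted p = 0.0106). In both genes the flagged value was the oxaliplatin value on the side of the vehicle group. The larger difference without it follows from that choice and adds no evidence for a fall.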

How the results depend on the processing

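The count of the 10 genes past the threshold was 0 higher and 0 lower. It became 1 higher in DESeq2 (Agtr1a), 1 in limma voom and 1 with a surrogate variable (Mrgprb4 in both), and ran from 0 to 1 when 1 library was left out. Over all genes, 234 were higher and 142 lower, against 514 and 408 in DESeq2, 439 and 342 in limma voom, 424 and 304 at an adjusted p below 0.1, 47 and 80 with the pan-neuronal level as a covariate, 79 to 343 and 34 to 251 when 1 library was left out, and 142 and 76 without oxaliplatin replicate 1 and vehicle replicate 5. With the replicate number as a block, 382 were higher and 278 lower, and none of the 10 genes passed. Outside them, the block ended the call for Mrgpra2b (-0.93, edgeR adjusted p = 0.182). The numbers are not shown to pair the samples: same-numbered libraries correlated at -0.038 to 0.212 after group means were removed.

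Among the 10 genes, 6 changed sign under some alternative, all with a log2 fold change within 0.06 of 0. Lpar3 turned to 0.0286 with no composition factor, 0.00104 with no filter, 0.00279 with a stricter filter, 4.01e-05 in limma voom, 0.0143 with the replicate block and 0.119 with the pan-neuronal covariate, and ran from -0.0843 to 0.095 when 1 library was left out. Lpar5 turned to 0.00305 and 0.0794 with no composition factor and with that covariate (-0.0966 to 0.0369 when 1 library was left out), Mrgpra3 to 0.0037 and 0.0407 (-0.118 to 0.0757), and Mrgprx1 to 0.0072 with that covariate (-0.0827 to 0.0197). Plxnc1 turned to -0.0687 with a surrogate variable and -0.0728 without oxaliplatin replicate 1 and vehicle replicate 5 (-0.0397 to 0.156), and Mrgpre ran from -0.1001 to 0.0157. Mrgprd, Mrgprb4, Mrgprb5 and Agtr1a kept their direction under all 21 alternatives, but Mrgprb5 came to -0.026 with the pan-neuronal covariate. Of the calls described above, that covariate ended those of Mrgpra2a, P2rx3, Ace, Nefh, Kcnj8, Abcc9, Pecam1 and Cdh5 (edgeR adjusted p of 0.0625 to 0.273). It did not end those of Mrgpra2b, Calcb, Cx3cr1 and Ctss. With it the log2 fold changes of Mrgpra2a (-0.919), P2rx3 (-0.323), Abcc9 (0.99) and Pecam1 (1.004) were no closer to 0. The SE of Mrgpra2a went from 0.175 to 0.214 and that of Abcc9 from 0.21 to 0.28. Closer to 0 were Ace (0.572), Nefh (-0.467), Kcnj8 (1.105) and Cdh5 (0.488). The cause of these shifts was not tested. Each of the 10 genes had at least 106 counts in a library, and whether more depth would change their calls was not tested. The family genes under the filter rest on few counts.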
